A study of Rattus norvegicus with 12 samples.

Results

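Genes that make, export and sense oxysterols and bile acids were followed in rat brain after bile duct ligation. The set held 8 genes, taken by name from the count table: the liver X receptors Nr1h2 and Nr1h3, the sterol exporters Abca1 and Abcg1, the sterol hydroxylases Cyp46a1, Cyp27a1 and Cyp7b1, and the receptor S1pr2. All 8 were found among 17337 rows, and all 8 were among the 12850 genes tested. The rats were Sprague-Dawley males labelled as postnatal day 60, and the tissue is called middle brain in the series text and brain in the sample labels. The AAV-VEGFC group had bile duct ligation (BDL) with a modelling time of 4 weeks, and an adeno-associated virus (AAV) for VEGFC, a growth factor of lymphatic vessels, given into the cisterna magna in 20 µl. The AAV-GFP group had the same ligation and an AAV coding for green fluorescent protein in the same volume. The BDL group was ligated and had no vector by its labels, and the sham group was neither ligated nor given a vector by its labels. Each group held 3 libraries. Neither the vectors' promoter nor the order of injection and ligation is given in the labels.

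Cholesterol in the brain is made locally, because lipoproteins of the blood do not cross the blood-brain barrier, and it leaves mainly after hydroxylation to oxysterols. Oxysterols also act as ligands of the liver X receptors (LXR), nuclear receptors that pair with retinoid X receptors and switch on exporters such as Abca1 and Abcg1. Ligation of the bile duct raises bile acids in the blood, and conjugated bile acids can act on S1pr2, a receptor otherwise known for sphingosine 1-phosphate. The comparison of ligated with sham rats therefore bears on whether these transcripts moved in the brain when bile outflow was blocked.

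The promoter of Abca1 holds the best-known binding element of LXR, a pair of hexamers separated by a spacer of 4 bases (a DR4 element), and it is shown here with that of Cyp27a1 because these 2 members came closest to a difference between groups. Promoters were taken from RefSeq on the GRCr8 build, as 250 bases before and 50 bases after each annotated start, and 6 of the 8 members had an entry. The files were counted on rn6, so these coordinates belong to GRCr8 only. Sequences run 5′ to 3′ on the strand of the gene, with motif matches in capitals. The Abca1 window lies on the minus strand at chr5:72596424-72596723 and the Cyp27a1 window on the plus strand at chr9:83713282-83713581.
Abca1: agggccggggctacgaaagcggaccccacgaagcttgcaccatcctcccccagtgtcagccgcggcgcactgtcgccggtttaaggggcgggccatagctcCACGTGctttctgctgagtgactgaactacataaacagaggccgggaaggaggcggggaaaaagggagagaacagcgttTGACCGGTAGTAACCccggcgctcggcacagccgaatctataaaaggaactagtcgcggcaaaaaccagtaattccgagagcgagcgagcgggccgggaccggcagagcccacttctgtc
Cyp27a1: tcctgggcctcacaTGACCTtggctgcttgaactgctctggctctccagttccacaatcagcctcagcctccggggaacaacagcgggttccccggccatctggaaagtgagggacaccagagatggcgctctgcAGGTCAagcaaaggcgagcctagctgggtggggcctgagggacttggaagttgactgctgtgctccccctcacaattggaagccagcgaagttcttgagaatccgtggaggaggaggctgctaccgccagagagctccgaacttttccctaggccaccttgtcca
In Abca1 the second run of capitals, 70 to 56 bases before the start, is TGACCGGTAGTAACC. Read on the other strand it is GGTTA, 4 further bases and CGGTCA, the form of DR4 known from the ABCA1 gene, and the same motif (GGTTA and CGGTCA with any 4 bases between) was found in 3 of 33469 promoters (0.00896%) when both strands were searched. The first run in Abca1 is the E-box CACGTG, found in 6.42% of all promoters. The 2 runs in Cyp27a1 are single half-sites, AGGTCA or its reverse complement TGACCT, which 16.2% of all promoters held. The other 4 member promoters, of Cyp46a1, Nr1h2, Nr1h3 and S1pr2, held none of these letters in the window. The consensus DR4, AGGTCA repeated in the same direction after any 4 bases, was in 2 of 33469 promoters (0.00598%) and in no member's. A match of letters is a description of the window, and binding was not measured.

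Library totals ran from 40296297 to 51669067 counts. Levels are CPM, read counts scaled to library size with TMM factors, given as mean ± SD over 3 libraries, and differences are log2 fold changes ± SE from edgeR's quasi-likelihood test, where a gene was called at a Benjamini-Hochberg adjusted p under 0.05 over all tested genes. Slc17a7, the vesicular glutamate transporter of cortical and hippocampal neurons, was at 1250 to 2030 CPM in all 12 libraries, while Th, which marks dopamine neurons of the midbrain, was at 0.652 to 1.7 CPM. Sham 2, AAV-GFP 1, AAV-VEGFC 1 and AAV-VEGFC 3 stood apart on cell type markers: the summed level of 7 choroid plexus markers was 285 CPM in sham 2, where sham 1 and sham 3 had 5.98 and 7.67 CPM. The 5 hypothalamus and pituitary markers summed to 85.1 CPM in AAV-GFP 1, where AAV-GFP 2 and AAV-GFP 3 had 2.32 and 1.58 CPM. The same markers summed to 57.4 CPM in AAV-VEGFC 3, mostly the pituitary transcripts Gh1 (27.8 CPM) and Prl (25.7 CPM), where AAV-VEGFC 1 and AAV-VEGFC 2 had 10.5 and 9.84 CPM; without AAV-VEGFC 3 edgeR called 0 members in every comparison. In AAV-VEGFC 1 the 7 astrocyte markers summed to 10800 CPM and the 7 neuron markers to 4790 CPM, where AAV-VEGFC 2 and 3 had 5700 to 5900 and 7290 to 7330 CPM. Blood markers, 7 of 7 in the table, moved with ligation: they summed to 954 to 1330 CPM with AAV-VEGFC, 821 to 913 CPM with AAV-GFP and 438 to 870 CPM in BDL, against 117 to 158 CPM in sham, and their part in the results below was not tested. Calls gained or lost without sham 2, AAV-GFP 1 or AAV-VEGFC 1 are given beside the members they touch. Leaving out these 3 libraries together was an alternative chosen after the data were seen, and AAV-VEGFC 3 was kept in it. In bulk tissue, fewer cells of a type and less RNA per cell cannot be told apart, and the p-values measure the spread between these libraries.

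By edgeR's quasi-likelihood test 0 of the 8 members were called in any comparison. In AAV-GFP against BDL limma voom called Abca1 and Cyp27a1 (adjusted p = 0.00345 and 0.0217), beside 4687 of the 12850 tested genes. In BDL against sham 0 of 8 members were called by edgeR, DESeq2 and limma voom alike, beside 0.109% of all tested genes (0.0934% higher and 0.0156% lower), so a count of 0 is close to the background. There 0 members had an unadjusted p under 0.05, beside 5.9% of all genes. Over all 9 ligated libraries against sham 0 members were called, beside 10% of all genes (3.02% higher and 7% lower), and 0 had an unadjusted p under 0.05, beside 27.6%. The ligated and sham libraries of 0 members stood apart without overlap, beside 9.67% of all genes (5.05% higher and 4.62% lower). Vector and injection enter this comparison with ligation, because the ligated libraries include the AAV-GFP and AAV-VEGFC groups.

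With the vectors, in AAV-GFP against BDL 0 members were called by edgeR, beside 6.19% of all genes (0.988% higher and 5.2% lower); 0 had an unadjusted p under 0.05, beside 20.7%, and 0 parted the groups without overlap, beside 38.1% (18.2% higher and 20% lower). In AAV-VEGFC against BDL 0 were called, beside 9.93% (2.91% higher and 7.02% lower). There 1 member, Abca1, had an unadjusted p under 0.05, beside 29.2%, and it alone parted the groups, beside 32.9% (14.6% higher and 18.3% lower). In AAV-VEGFC against AAV-GFP 0 were called, beside 0.00778% of all genes, which is 1 gene, and it was lower. There 0 had an unadjusted p under 0.05, beside 4.37%, and 0 parted the groups, beside 6.06% (3.29% higher and 2.77% lower). A test of any difference among the 4 groups called 0 members by edgeR, beside 13.7% of all genes, with the smallest adjusted p at 0.213, for Abca1. DESeq2 called 0 members, beside 3378 genes. Limma voom called 3 members, beside 6627 of the 12850 tested genes.

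**Figure D1:**
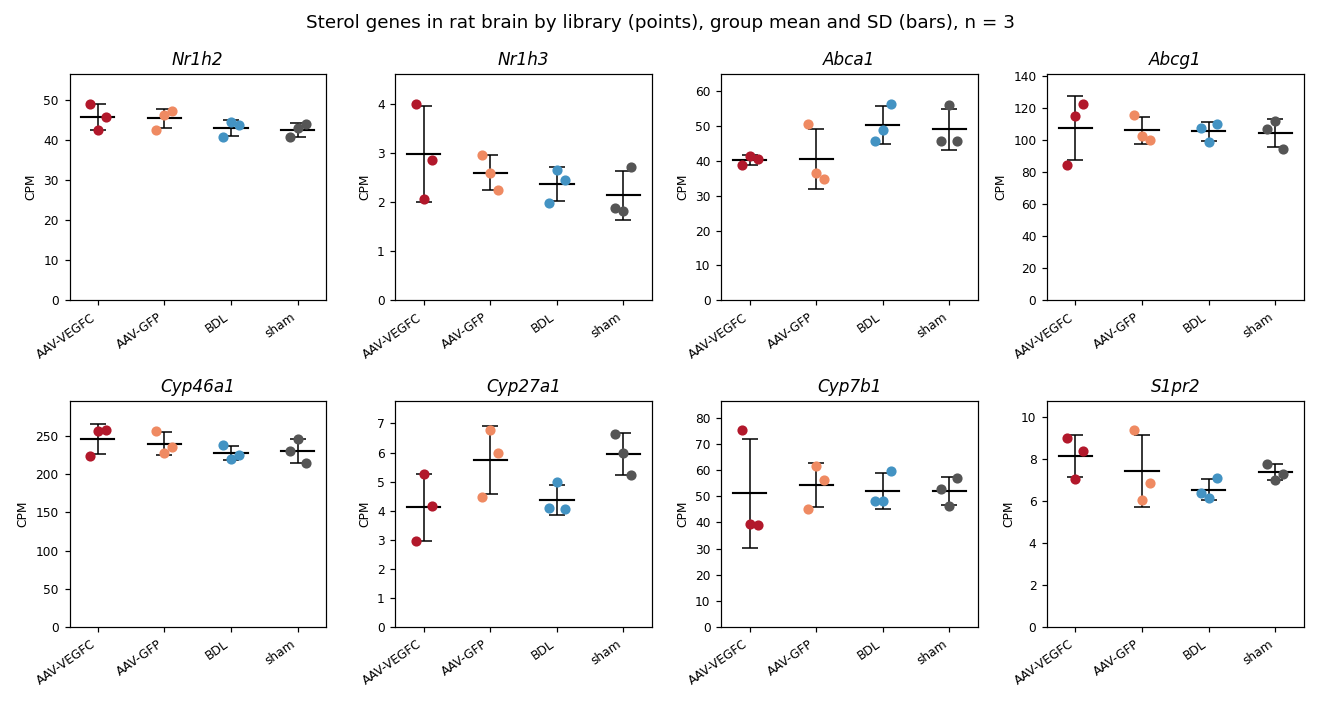
Level of each of the 8 members in CPM (y axis, from 0) in every library (points), by group (x axis: AAV-VEGFC, AAV-GFP, BDL, sham), with the group mean (line) and SD (bar), n = 3. Cyp46a1 runs from 215 to 258 CPM over all 12 libraries, while Cyp7b1 has a single high library at 75.4 CPM in the AAV-VEGFC group.

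No difference between groups passed for the receptors themselves. Nr1h2 encodes LXR beta, the form found in most tissues, the brain included. Its level was 49.2, 42.6 and 45.9 CPM in the AAV-VEGFC libraries, 42.7, 46.4 and 47.4 CPM with AAV-GFP, 40.9, 44.5 and 43.9 CPM in BDL, and 40.8, 43.1 and 44.1 CPM in sham. The 4 groups overlapped, and the highest library stood 1.21-fold above the lowest. BDL against sham gave a log2 fold change of 0.02 ± 0.08 with a 95% confidence interval from -0.15 to 0.18, which as a fold is 0.902 to 1.13. Nr1h3 encodes LXR alpha, which is abundant in liver and macrophages. It was counted 90 to 159 times per library, so that counting error alone was 7.93% to 10.5%. Nr1h3 stood at 4.01, 2.06 and 2.86 CPM with AAV-VEGFC, 2.96, 2.59 and 2.25 CPM with AAV-GFP, 1.99, 2.66 and 2.45 CPM in BDL, and 1.88, 1.83 and 2.72 CPM in sham. The groups overlapped, and no difference passed (BDL against sham 0.14 ± 0.27, adjusted p = 1; all ligated against sham 0.30 ± 0.22, adjusted p = 0.401). The highest value, 4.01 CPM, came from AAV-VEGFC 1; without that library Nr1h3 in AAV-VEGFC against BDL gave 0.05 (adjusted p = 0.908) in place of 0.33 (0.449), and all ligated against sham 0.21 (0.469). Without sham 2, AAV-GFP 1 and AAV-VEGFC 1 the ligated difference was 0.07 (0.841). In AAV-VEGFC 1 the 7 microglia markers summed to 552 CPM, while AAV-VEGFC 2 and AAV-VEGFC 3 had 327 and 346 CPM; their part in the value was not tested.

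Of the 2 exporters, both direct LXR targets, Abca1 was the member with the lowest p in each vector group against BDL. Abca1 loads cholesterol onto lipid-poor apolipoproteins. In BDL it was 50.3 ± 5.49 CPM and in sham 49.1 ± 5.93 CPM, a difference of 0.03 ± 0.14 (adjusted p = 1, interval as a fold 0.827 to 1.27). The vector libraries held 38.8, 41.4 and 40.5 CPM with AAV-VEGFC and 50.5, 36.5 and 34.9 CPM with AAV-GFP, against 45.7, 48.7 and 56.4 CPM in BDL and 45.6, 55.9 and 45.7 CPM in sham. All 3 AAV-VEGFC libraries lay below the BDL range, as did 2 of 3 with AAV-GFP; AAV-GFP 1 lay inside it. For AAV-VEGFC against BDL the log2 fold change was -0.32 ± 0.14 (adjusted p = 0.158). For AAV-GFP against BDL it was -0.31 ± 0.14 (adjusted p = 0.244). Both comparisons share the BDL libraries. Without AAV-GFP 1 the second difference passed (-0.50, adjusted p = 0.0292). The first did not pass without AAV-VEGFC 1 alone (-0.295, adjusted p = 0.226). With sham 2, AAV-GFP 1 and AAV-VEGFC 1 all left out both passed (AAV-GFP -0.50, adjusted p = 0.00279, and AAV-VEGFC -0.29, adjusted p = 0.029). AAV-VEGFC and AAV-GFP differed by -0.01 ± 0.14. The summed level of 8 markers of blood vessel endothelium, of which Slco1c1 is also on the bile acid transport list, was higher in the vector groups, at 447 to 556 CPM with AAV-VEGFC and 457 to 483 CPM with AAV-GFP against 307 to 374 CPM in BDL, and their part in the Abca1 values was not tested. Singly, Cldn5, Pecam1, Flt1 and Tek lay above the BDL range in all 6 vector libraries, while Kdr, Cdh5, Slco1c1 and Ocln overlapped it.

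Abcg1 passes sterol on to formed lipoprotein particles. Its libraries held 84.8, 115 and 123 CPM with AAV-VEGFC, 116, 103 and 100 CPM with AAV-GFP, 108, 99 and 110 CPM in BDL, and 107, 112 and 94.9 CPM in sham. Its 4 group means lay between 105 and 108 CPM and all groups overlapped. BDL against sham gave 0.01 ± 0.13 (adjusted p = 1), with an interval of 0.83 to 1.22 as a fold.

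Among the hydroxylases, Cyp27a1 was the only member whose BDL and sham libraries did not overlap. Cyp27a1 is a mitochondrial enzyme of the sterol side chain, needed for the acidic pathway of bile acid synthesis. Its libraries held 2.95, 5.25 and 4.15 CPM with AAV-VEGFC, 4.46, 6.77 and 5.97 CPM with AAV-GFP, 4.1, 4.97 and 4.04 CPM in BDL, and 6.65, 5.99 and 5.21 CPM in sham. The BDL libraries all lay below the sham range, as they did for 12.4% of all genes, with 25% parting these groups in either direction. The log2 fold change was -0.45 ± 0.22 (adjusted p = 0.902), and the interval from 0.525 to 1.03 as a fold includes no difference. With AAV-GFP the mean was 5.74 ± 1.17 CPM, near the 5.95 ± 0.718 CPM of sham, and AAV-GFP against BDL gave 0.39 ± 0.22 (adjusted p = 0.354). That difference passed without sham 2, AAV-GFP 1 and AAV-VEGFC 1 (0.54, adjusted p = 0.0458), and did not pass without AAV-GFP 1 alone (0.54, adjusted p = 0.197). AAV-VEGFC against AAV-GFP gave -0.48 ± 0.22 (adjusted p = 0.948). The counts behind these values were 117 to 340 per library, with a counting error of 5.42% to 9.25%.

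Cyp46a1, the neuronal enzyme through which most brain cholesterol leaves, had small spread. Its libraries held 224, 257 and 258 CPM with AAV-VEGFC, 257, 228 and 236 CPM with AAV-GFP, 238, 220 and 226 CPM in BDL, and 231, 246 and 215 CPM in sham. The groups overlapped throughout, and the highest library was 1.2-fold above the lowest. In BDL against sham the difference was -0.02 ± 0.08 (adjusted p = 1), with an interval of 0.872 to 1.12 as a fold. For AAV-VEGFC against BDL it was 0.11 ± 0.08 (adjusted p = 0.399). Without AAV-VEGFC 1 alone it was 0.18 (adjusted p = 0.0986), and without sham 2 and AAV-GFP 1 as well it was 0.18 (adjusted p = 0.0301).

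Cyp7b1, which hydroxylates oxysterols and neurosteroids on the sterol ring, varied more between libraries than between groups. It stood at 75.4, 39.5 and 38.9 CPM with AAV-VEGFC, 45, 61.6 and 56.3 CPM with AAV-GFP, 48.2, 48.1 and 59.9 CPM in BDL, and 52.9, 46.3 and 56.9 CPM in sham. The highest and the lowest of all 12 libraries were both AAV-VEGFC libraries. BDL and sham had the same mean, 52 ± 6.79 and 52 ± 5.36 CPM, and the interval of their difference, 0.705 to 1.42 as a fold, is wide. AAV-VEGFC against AAV-GFP gave -0.08 ± 0.23 (adjusted p = 0.979). AAV-VEGFC 1 carried the high value. Without it alone the difference did not pass (-0.47, adjusted p = 0.141), nor did that against BDL (-0.41, adjusted p = 0.0732). Without AAV-VEGFC 3 the difference from AAV-GFP was 0.08 (adjusted p = 0.939). With sham 2, AAV-GFP 1 and AAV-VEGFC 1 all left out it was -0.58 (adjusted p = 0.0131), and against BDL -0.41 (adjusted p = 0.0169). That fit dropped the highest AAV-VEGFC library and the lowest AAV-GFP library of this gene.

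S1pr2 couples to G proteins and answers to sphingosine 1-phosphate and, in liver cells, to conjugated bile acids. Its libraries held 9.03, 7.06 and 8.39 CPM with AAV-VEGFC, 9.39, 6.06 and 6.86 CPM with AAV-GFP, 6.39, 6.16 and 7.11 CPM in BDL, and 7.78, 7.03 and 7.31 CPM in sham. All neighbouring groups overlapped. BDL against sham gave -0.17 ± 0.16 (adjusted p = 1), with an interval of 0.694 to 1.14 as a fold, and AAV-VEGFC against BDL gave 0.32 ± 0.16 (adjusted p = 0.221).

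**Figure D2:**
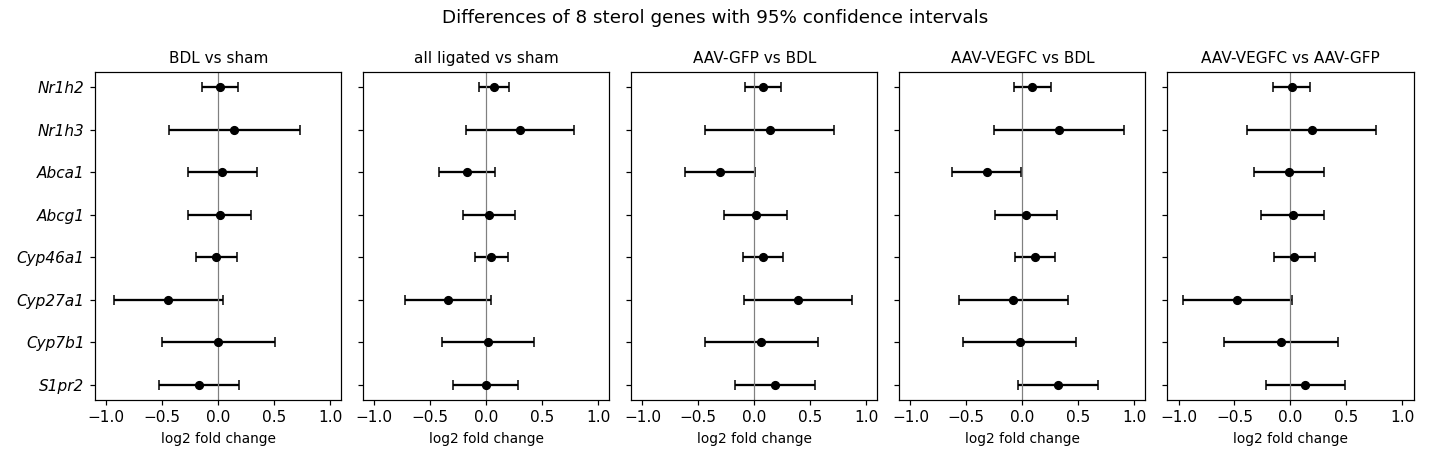
Log2 fold change (x axis, the first-named group over the second) of each member in 5 comparisons, with 95% confidence intervals from the edgeR fit of 12 libraries. The interval leaves out 0 only for Abca1 in AAV-VEGFC against BDL (-0.63 to -0.01), without adjustment for the number of genes, and is narrowest for Nr1h2 and Cyp46a1.

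In size, the members' differences were small. The median absolute log2 fold change over the 8 members was 0.03 in BDL against sham, beside 0.10 over all tested genes. It was 0.06 beside 0.17 for all ligated against sham, 0.11 beside 0.17 for AAV-GFP against BDL, 0.10 beside 0.22 for AAV-VEGFC against BDL, and 0.06 beside 0.11 for AAV-VEGFC against AAV-GFP. In BDL against sham 5 members had a positive and 3 a negative log2 fold change, with a median of 0.01 beside 0.01 over all genes.

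Other genes of the pathway were read from 6 lists of 102 names, of which 94 were in the table and 78 were tested. In BDL against sham 0 of the 78 were called by edgeR, beside 0.109% of all genes, and 0 by DESeq2, beside 108 genes. There 7 of the 78 had an unadjusted p under 0.05 by edgeR, beside 5.9% of all genes. Limma voom called 2, beside 347 of the 12850 tested genes. With all ligated rats against sham 4 rose and 5 fell, 11.5% of the 78 beside 10% of all genes. In AAV-GFP against BDL 1 rose and 3 fell, 5.13% beside 6.19%. In AAV-VEGFC against BDL 3 rose and 7 fell, 12.8% beside 9.93%. In AAV-VEGFC against AAV-GFP 0 were called by edgeR, DESeq2 and limma voom, which called 1, 10 and 1 of all genes. There 5 of the 78 had an unadjusted p under 0.05 by edgeR, beside 4.37% of all genes. The shares called by edgeR lie near the background of all genes, and the pathway did not stand out by its number of edgeR calls.

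Among 14 tested LXR targets other than the members, Pltp and Mylip were called. Pltp, a plasma phospholipid transfer protein, was 147, 106 and 130 CPM with AAV-VEGFC, 133, 111 and 115 CPM with AAV-GFP, 73.6, 97.8 and 85 CPM in BDL, and 69.4, 86.2 and 77.5 CPM in sham. The vector libraries all lay above all BDL and sham libraries, and the share of all genes with this pattern was not computed. Against BDL alone, 14.6% of all genes lay above without overlap with AAV-VEGFC and 18.2% with AAV-GFP. Pltp rose in AAV-VEGFC against BDL (0.58 ± 0.14, adjusted p = 0.0247), ended by leaving out BDL 1, BDL 3 or AAV-VEGFC 3 (adjusted p = 0.106, 0.0801 and 0.0503) and by a fit of these groups alone (0.112), and in all ligated against sham (0.49 ± 0.12, adjusted p = 0.0229), ended without sham 1 or sham 3 (0.149 and 0.107). With AAV-GFP against BDL it did not pass by edgeR (0.49 ± 0.14, adjusted p = 0.0663). It passed in 6 of 19 alternatives, among them DESeq2 (0.0137), limma voom (0.00578) and the fit without AAV-VEGFC 1 (0.0178). Mylip, a ubiquitin ligase that lowers lipoprotein receptors, fell in AAV-VEGFC against BDL, with 16.3, 16.5 and 15.3 CPM against 24.9, 28.6 and 24.7 CPM (-0.70 ± 0.12, adjusted p = 0.00494), and kept its call in all 19 alternatives. With AAV-GFP it held 15.8, 23.1 and 20.6 CPM, below the BDL range in each library, as 20% of all genes were. That difference did not pass by edgeR (-0.40 ± 0.12, adjusted p = 0.088). It passed in 4 of 19 alternatives: DESeq2 (0.037), limma voom (0.0091), and without AAV-VEGFC 1 (0.0396) or AAV-GFP 2 (0.0487). Pltp and Mylip thus moved in opposite directions in the AAV-VEGFC group. Srebf1, the lipogenic transcription factor, was 103 ± 9.08 CPM in BDL and 86.7 ± 6.86 CPM in sham (0.25 ± 0.11, adjusted p = 0.82). Srebf1 in all ligated against sham did not pass by edgeR (0.27 ± 0.09, adjusted p = 0.0833). It passed in 4 of 18 alternatives, among them DESeq2 (0.0322), limma voom (0.012) and the fit without AAV-VEGFC 1 (0.0384). Abcg5, a sterol exporter of liver and gut, was 0.473 CPM in BDL and 0.145 CPM in sham on average (adjusted p = 0.821). Apoe, the main lipid carrier of the brain, was 2670 ± 113 CPM in BDL and 2350 ± 109 CPM in sham (0.19 ± 0.22, adjusted p = 1), and its 3 BDL libraries lay above the sham range, as 12.6% of all genes did. Its highest value, 5320 CPM, came from AAV-VEGFC 1, the library with the high astrocyte markers.

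Of the retinoid X receptor partners and coregulators, 9 were tested. In BDL against sham 0 were called by edgeR, beside 0.109% of all genes, with 0 at an unadjusted p under 0.05, beside 5.9%. Rxra, the retinoid X receptor alpha, was 13.6 CPM in BDL and 12.7 CPM in sham (adjusted p = 1).

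Of 16 tested genes of oxysterol and bile acid synthesis, Ch25h was the only one called by edgeR in ligated rats against sham. Ch25h is an enzyme that makes an oxysterol. It was 2.27, 2.39 and 4.09 CPM with AAV-VEGFC, 3.57, 3.05 and 1.98 CPM with AAV-GFP, 1.41, 2.87 and 2.43 CPM in BDL, and 1.23, 1.32 and 1.24 CPM in sham. All 9 ligated libraries lay above the sham range, as 5.05% of all genes did. Ch25h rose in that comparison (1.07 ± 0.28, adjusted p = 0.0367), while BDL alone against sham did not pass (0.82 ± 0.33, adjusted p = 0.792). Its call was lost when leaving out sham 1, sham 2 or sham 3 (adjusted p = 0.163, 0.109 and 0.151), BDL 2 or BDL 3 (0.0647 and 0.0652), or AAV-GFP 1 or AAV-GFP 2 (0.0508 and 0.0614). Microglia markers summed to 327 to 552 CPM with AAV-VEGFC, 348 to 572 CPM with AAV-GFP, 293 to 338 CPM in BDL and 252 to 294 CPM in sham. By library, AAV-VEGFC 1 had the highest marker sum of its group (552 CPM) and the lowest Ch25h. AAV-VEGFC 3, with 346 CPM, had the highest Ch25h. Within AAV-GFP the highest library was the same for both, AAV-GFP 1 (572 CPM). The part of microglia in the rise was not tested. Por, which hands electrons to microsomal P450 enzymes, rose in AAV-GFP against BDL, with 149, 139 and 138 CPM against 125, 117 and 114 CPM (0.26 ± 0.07, adjusted p = 0.0417), a call that ended without any 1 of the libraries of AAV-GFP, BDL or sham (adjusted p from 0.0662 to 0.166 over these 9). With AAV-VEGFC, Por held 130, 136 and 140 CPM, also above the BDL range, as 14.6% of all genes were. That difference did not pass by edgeR (0.19, adjusted p = 0.0928) and passed in 4 of 19 alternatives. Acox2, a peroxisomal oxidase of bile acid precursors, averaged 0.0335 CPM in BDL and 0.273 CPM in sham (adjusted p = 0.78 by edgeR). Of the alternatives limma voom called it (0.0385), on 0, 0 and 5 counts in BDL.

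Both enzymes that conjugate bile acids in liver were at trace levels. Slc27a5, which activates bile acids, had 0, 0 and 5 counts with AAV-VEGFC and 13, 11 and 9 counts with AAV-GFP, against 33, 18 and 37 counts in BDL and 21, 19 and 24 counts in sham. It fell in AAV-VEGFC against BDL (adjusted p = 0.0137; 0.0535 without BDL 1, and 0.0943 in a fit of these groups alone). Baat, which attaches the amino acid, had 0 counts in all 3 AAV-VEGFC libraries and 0, 0 and 6 counts with AAV-GFP, against 11, 16 and 18 counts in BDL and 12, 17 and 4 counts in sham. Set against a floor of 3 counts over the AAV-VEGFC group, Baat was 14.2-fold lower there than in BDL. That ratio takes the BDL counts as exact and leaves out the spread between libraries. Baat was called lower by edgeR (adjusted p = 0.0317), and this call ended without BDL 1, BDL 2 or BDL 3 (adjusted p = 0.078, 0.0809 and 0.0863). It also ended without sham 1, sham 2 or AAV-VEGFC 3 (0.0584, 0.0534 and 0.0571) and in a fit of these groups alone (0.051). DESeq2 gave no adjusted p for either gene in AAV-VEGFC against BDL. In all ligated against sham it called Slc27a5 lower (-1.39, adjusted p = 0.0389), where edgeR did not (0.137). Liver transcripts were scarce: Alb was 5.04 to 13.5 CPM in all 12 libraries, and Apoa2 was at 0 counts in each. The 6 hepatocyte markers summed to 7.99 to 251 CPM, of which 245 CPM in sham 2 were Ttr, a transcript that choroid plexus also makes.

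Bile acid receptors and carriers of liver and gut were mostly below the limit of testing, with 8 of 23 listed genes tested. Cyp7a1, which starts bile acid synthesis in liver, the carriers Slc10a1, Slco1a1 and Slco1b2, and the nuclear receptor Nr1i3 had 0 counts in all 12 libraries, where 3 counts would be 0.0586 to 0.0757 CPM. The bile acid receptors Nr1h4 and Gpbar1 reached at most 7 counts in a library. Of the tested carriers, Slco1a2, an organic anion transporter of the blood-brain barrier that carries bile acids, rose in all ligated against sham (0.59 ± 0.14, adjusted p = 0.0265), with 98.6 ± 19.6 CPM in 9 ligated libraries and 65.3 ± 6.69 CPM in 3 sham libraries. Its call ended without sham 1, sham 2 or sham 3 (adjusted p = 0.155, 0.0964 and 0.069). Endothelial markers summed to 447 to 556 CPM with AAV-VEGFC, 457 to 483 CPM with AAV-GFP and 307 to 374 CPM in BDL, against 303 to 344 CPM in sham, and their part in the rise of Slco1a2 was not tested. BDL alone against sham did not pass (0.35 ± 0.17, adjusted p = 0.899). Abcc2, an efflux pump of conjugated anions, fell in all ligated against sham (-0.39 ± 0.11, adjusted p = 0.0491), with 3.47 CPM on average against 4.54 CPM, and its call ended without any 1 library but AAV-VEGFC 1 (adjusted p from 0.0504 to 0.243).

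**Figure D3:**
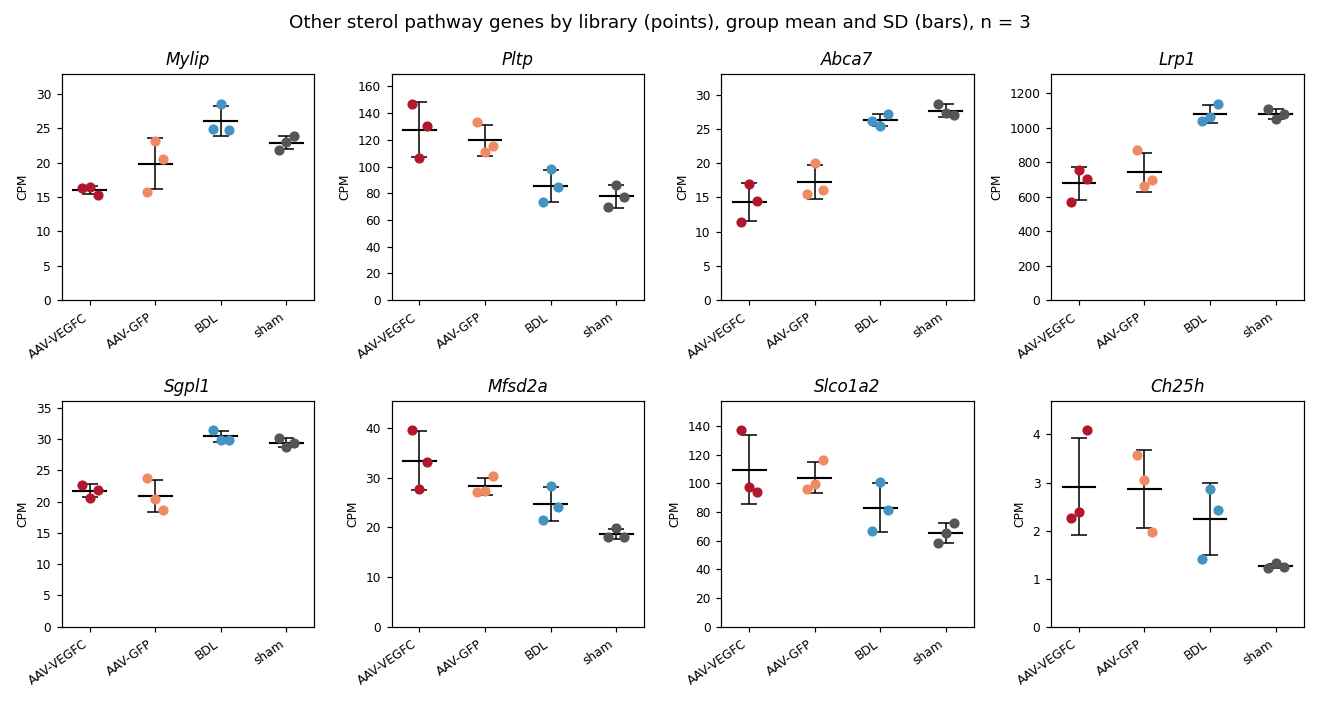
Level in CPM (y axis, from 0) of 8 other pathway genes called in at least 1 comparison, in every library (points), by group (x axis: AAV-VEGFC, AAV-GFP, BDL, sham), with the group mean (line) and SD (bar), n = 3. For Abca7, Lrp1 and Sgpl1 all 6 vector libraries lie below all BDL and sham libraries, and for Pltp all 6 lie above them. The share of all genes with either pattern was not computed. Against BDL alone, 18.3% of all genes lay below without overlap with AAV-VEGFC and 20% with AAV-GFP, and 14.6% and 18.2% lay above.

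In the sphingosine 1-phosphate list of 10 tested genes, Sgpl1 and Mfsd2a were called. Sgpl1, the lyase that breaks the lipid down, fell to 22.7, 20.6 and 21.8 CPM with AAV-VEGFC and 23.7, 20.4 and 18.6 CPM with AAV-GFP, against 31.4, 29.9 and 29.9 CPM in BDL; sham held 30.1, 28.7 and 29.3 CPM. The call held in all 19 alternatives for AAV-VEGFC (-0.49 ± 0.09, adjusted p = 0.00608) and for AAV-GFP (-0.54 ± 0.09, adjusted p = 0.0044), 2 comparisons that share the BDL libraries. It also fell in all ligated against sham, which includes the vector groups (-0.29 ± 0.07, adjusted p = 0.0248). That call ended without sham 1, sham 2, sham 3 or BDL 3 (adjusted p = 0.132, 0.0744, 0.105 and 0.0504). BDL alone against sham gave 0.05 for Sgpl1 and did not pass. Mfsd2a, a lipid transporter of brain endothelium that also exports sphingosine 1-phosphate, rose in all ligated against sham, with 28.8 ± 5.21 CPM in 9 ligated libraries and 18.6 ± 1.01 CPM in 3 sham libraries (0.62 ± 0.11, adjusted p = 0.00615), in all 18 alternatives. All 9 ligated libraries lay above the sham range, as 5.05% of all genes did. In BDL alone the libraries held 21.6, 28.3 and 24.1 CPM against 18, 19.8 and 18.1 CPM in sham. That difference did not pass (0.41 ± 0.13, adjusted p = 0.596). Endothelial markers summed to 307 to 374 CPM in BDL and 303 to 344 CPM in sham, overlapping ranges, and stood higher in the vector groups as given above; their part in the rise was not tested. S1pr3, a receptor of the same family as S1pr2, was 10.1 CPM in BDL and 13.3 CPM in sham on average. That difference did not pass by edgeR (-0.40 ± 0.12, adjusted p = 0.513), and limma voom called it (0.0297). S1pr3 in all ligated against sham did not pass by edgeR (-0.31 ± 0.10, adjusted p = 0.0661). It passed in 5 of 18 alternatives, among them DESeq2 (0.0295), limma voom (0.00965) and the fits without AAV-VEGFC 1 or AAV-VEGFC 2 (0.0361 and 0.0488).

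Among 21 tested oxysterol sensors and sterol carriers, Lrp1 and Abca7 fell with both vectors. Lrp1, the receptor through which neurons take up lipoproteins, was 570, 758 and 704 CPM with AAV-VEGFC and 869, 661 and 695 CPM with AAV-GFP, against 1040, 1060 and 1140 CPM in BDL. Its difference from BDL was -0.67 ± 0.12 with AAV-VEGFC (adjusted p = 0.00491, called in all 19 alternatives) and -0.54 ± 0.12 with AAV-GFP (adjusted p = 0.0211), where the call ended without BDL 1, BDL 2, BDL 3, AAV-GFP 2 or AAV-GFP 3 (adjusted p from 0.0586 to 0.0965). BDL and sham both averaged 1080 CPM, at 1080 ± 51.6 and 1080 ± 29.3 CPM (0.00 ± 0.12, adjusted p = 1). Abca7, a lipid exporter related to Abca1, was 11.4, 17 and 14.5 CPM with AAV-VEGFC and 15.5, 20.1 and 16.1 CPM with AAV-GFP, against 26.1, 25.5 and 27.2 CPM in BDL. Its difference from BDL was -0.87 ± 0.14 with AAV-VEGFC (adjusted p = 0.00256, called in all 19 alternatives) and -0.61 ± 0.14 with AAV-GFP (adjusted p = 0.0233), the call ending without BDL 1, BDL 2, BDL 3, AAV-GFP 1 or AAV-GFP 3 (adjusted p from 0.0669 to 0.102). Both genes also fell in all ligated against sham, a comparison that includes the vector groups. Lrp1 fell by 0.41 on the log2 scale (adjusted p = 0.0202, and 0.127, 0.0638 and 0.1 without sham 1, sham 2 and sham 3). Abca7 fell by 0.57 (adjusted p = 0.00746, and 0.0618 without sham 1). BDL alone against sham gave -0.08 for Abca7, with 28.7, 27.4 and 27 CPM in sham, and did not pass for either gene. Apod and Clu, lipid-binding apolipoproteins of glia, rose in AAV-VEGFC against BDL. Apod was 248, 201 and 287 CPM against 165, 183 and 182 CPM (0.48 ± 0.12, adjusted p = 0.027), and its call ended without BDL 1, BDL 2, BDL 3 or AAV-VEGFC 3 (adjusted p from 0.0625 to 0.115) and in a fit of these groups alone (0.149). Clu was 1240, 1040 and 1080 CPM against 896, 922 and 946 CPM (0.28 ± 0.08, adjusted p = 0.0377), and its call ended without any 1 library of BDL or sham, or without AAV-GFP 2 or AAV-GFP 3 (adjusted p from 0.0548 to 0.137), and in a fit of these groups alone (0.184). With AAV-GFP, Apod and Clu also lay above the BDL range in each library, as 18.2% of all genes did. Apod held 194, 211 and 218 CPM there (0.23, adjusted p = 0.296 by edgeR) and passed in 1 of 19 alternatives. Clu held 1180, 1100 and 1050 CPM (0.27, adjusted p = 0.0611 by edgeR) and passed in 5 of 19. Scarb1, a lipoprotein receptor, was 36.1 CPM in BDL and 33.5 CPM in sham (adjusted p = 0.942). Scarb1 in all ligated against sham did not pass by edgeR (0.16 ± 0.05, adjusted p = 0.0693). It passed in 4 of 18 alternatives, among them DESeq2 (0.00868), limma voom (0.00861) and the fit without AAV-VEGFC 1 (0.0186).

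The genes most like each member in log2 CPM over the 12 libraries, by Pearson's correlation, were Man2b1, Htr1b and Trpm3 for Abca1, Slc9a8, Kcnd1 and Tmem41a for Abcg1, Rab3b, Pi4kb and Tacc2 for Cyp46a1, and Tmed7, Eif1a and Selt for Cyp7b1. For Cyp27a1 they were Sntg1, Plcxd2 and RT1-M6-1, for Nr1h2 Coq3, Tmem123 and Sult5a1, for Nr1h3 Ggct, Ift27 and Arsk, and for S1pr2 RGD1563441, Nrn1l and Atp1b2. Correlations ran from 0.859 to 0.964. Among the members themselves, Abcg1 and Cyp46a1 varied together (0.804 over 12 libraries) and Abcg1 and Cyp7b1 varied in opposite directions (-0.836). Each gene named is the best match among all tested genes, and the libraries share group, depth and cell makeup, so these values describe the 12 libraries only.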

How the data were processed

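The deposited values are unnormalized whole-number counts by gene symbol. Tools named in the submitters' processing notes are featureCounts, HISAT2, Trimmomatic 0.36 and FastQC, with the build rn6; their settings and any use of strand are not given in these sources, so overlapping and antisense genes cannot be told apart. Per the labels, TruSeq libraries were made from 200 ng of total RNA. The table of 12 libraries equalled the 11 single-library files in every value. Groups came from the titles, and pairs within a group differed beyond sampling noise (chi-square per degree of freedom 11.63 to 227).

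From the deposited counts, edgeR 4.0.16 in R 4.3.3 computed TMM factors, kept 12850 genes with filterByExpr, which held 99.994% of counts, and fitted 1 quasi-likelihood model of 12 libraries. SE came from the F statistic. log2 CPM used a prior count of 2. Alternatives used DESeq2 1.42.0 and limma 3.58.1 (voom). Intervals and floors of 3 counts cover counting error only where they come from counts. The members, lists and comparisons were chosen with earlier results of these data known. Pathway genes were named when called in any comparison, or when among the 2 with the smallest p of their list in BDL against sham; Apoe was named after its values were seen. Some genes that this rule names are not reported here. Figures used matplotlib 3.10.9.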

Additional observations from a re-analysis of the deposited data

How the results depend on the processing

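Of 40 differences (8 members in 5 comparisons), 752 refits gave 9 past the threshold, and in 21 the sign changed at least once, all with neither value called. In BDL against sham and all ligated against sham 0 members were called in every setting. With limma voom 2 members were called in AAV-GFP against BDL (Abca1 and Cyp27a1), beside 4687 of all genes. In the test of any difference voom called 3 members, beside 6627 of all genes. Leaving out sham 2, AAV-GFP 1 and AAV-VEGFC 1 together was an alternative chosen after the data were seen. That fit called 3 members in AAV-VEGFC against BDL, beside 3123 of all genes. In AAV-VEGFC against AAV-GFP it called 1 member, beside 1193 of all genes. It called 2 members in AAV-GFP against BDL and 3 in the test of any difference, where its counts of all genes are not given here. Fewer libraries entered that fit, and the cause was not tested. With 1 library left out, 0 to 1 members were called in AAV-GFP against BDL and in the test of any difference (1 without AAV-GFP 1) and 0 elsewhere.

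The count of all genes called moved far more. It was 12 (replicate block) to 347 (limma voom) against 14 in BDL against sham, 378 (without sham 1) to 4506 (voom) against 1287 in all ligated against sham, 386 (without BDL 1) to 4687 (voom) against 795 in AAV-GFP against BDL, 330 (these groups alone) to 3123 (without the 3 libraries) against 1276 in AAV-VEGFC against BDL, 0 to 1193 (without the 3 libraries) against 1 in AAV-VEGFC against AAV-GFP, and 937 (without sham 1) to 6627 (voom) against 1766 for any difference. Among the 78 other pathway genes the counts ran from 0 to 2, 1 to 26, 1 to 36, 4 to 17 and 0 to 8 in the 5 comparisons, against 0, 9, 4, 10 and 0, with 15, 10 and 15 by DESeq2 in the middle 3. Without AAV-VEGFC 1 the count of all genes was 74, 3199, 2945, 2284 and 9.

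Same-numbered libraries did not deviate together (correlations of deviations from -0.128 to 0.069 over 18 pairs), so the samples share only a number. With the replicate block 0 members were called in every comparison, and 5, 2 and 7 of the 78 pathway genes in the middle 3 comparisons. In all ligated against sham the block ended Abcc2, Ch25h, Pltp and Slco1a2 (adjusted p = 0.0869, 0.0687, 0.0539 and 0.057). In AAV-GFP against BDL it ended Lrp1 and Por (0.0547 and 0.0931), and in AAV-VEGFC against BDL Baat, Clu and Pltp (0.0727, 0.0701 and 0.0571). Without a filter on low counts Abcc2 (0.0593) and Por (0.0519) also lost these calls. Depth limits Nr1h3 and Cyp27a1 most, with 90 to 340 counts per library.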
